A study of Mus musculus with 20 samples.

Results

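Small nucleolar RNAs (snoRNAs) are short non-coding RNAs, and in mammals most are encoded inside introns of other genes. Introns of the coSE table that wholly contained a snoRNA gene on the same strand, as annotated in GENCODE M21 on GRCm38 (mm10), were taken as snoRNA introns. There were 210 of them among the 68794 introns of the table, in 143 host genes that had 1551 other introns. They held 215 annotated snoRNA genes of the 1507 in that release. A further annotation shared the intron in 5 cases, and in 4 of these it overlapped the first.

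C/D box snoRNAs guide 2′-O-methylation and H/ACA box snoRNAs guide pseudouridylation, mostly of ribosomal RNA. An intronic snoRNA is made from its host transcript: as a rule the intron is spliced out, the lariat is debranched and exonucleases trim both ends up to the protein-bound snoRNA. Host genes often encode ribosomal proteins, translation factors or nucleolar proteins, and the C/D snoRNAs tend to lie close to the 3′ splice site.

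The cells were wild-type murine erythroleukemia (MEL) cells, a mouse erythroid precursor line. The uninduced group was untreated. The induced group was kept in 2% DMSO for 5 days, which starts erythroid maturation. Each group had 4 long-read libraries, made of 2 biological replicates that were each run on an RSII and on a Sequel (SQ) PacBio instrument. Their RNA came from the chromatin fraction and was depleted of polyadenylated and of ribosomal RNA. The other 12 of the 20 samples, with an integrated human HBB gene or measured by PRO-seq, were not analysed here.

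The tables hold 1 pooled line per intron and condition, so no replicate spread could be computed, and each p-value below compares pools of reads and not conditions. Most of the erythroid genes looked up had reads in both pools, for example 209 uninduced and 1886 induced reads at Hba-a1 (alpha-globin). Slc4a1, the red cell anion exchanger, had 0 uninduced and 817 induced reads, as raw counts not scaled to depth. The table held 416379 uninduced and 279371 induced observations, since a read counts at every intron it spans.

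The snoRNA sequences that the results below turn on are given here, from the GENCODE M21 transcripts (GRCm38), written 5′ to 3′ with the letters of DNA. Whatever the snoRNA's symbol, the capitals mark an exact C box (TGATGA) in the first 20 bases and an exact D box (CTGA) in the last 20 where both are present, as in C/D snoRNAs. Where they are not, an ACA that ends 3 bases before the 3′ end is in capitals, as in H/ACA snoRNAs. The first set comes from Nop56, where introns on either side of the gene's average were called.
Snord110, Nop56 intron 3 (chr2, 130275506 to 130275573, plus strand): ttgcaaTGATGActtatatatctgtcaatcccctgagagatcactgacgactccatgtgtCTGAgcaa
Gm23187, Nop56 intron 8 (chr2, 130277195 to 130277280, plus strand): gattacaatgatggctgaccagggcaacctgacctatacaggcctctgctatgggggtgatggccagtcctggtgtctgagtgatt
Gm23650, Nop56 intron 9 (chr2, 130277697 to 130277766, plus strand): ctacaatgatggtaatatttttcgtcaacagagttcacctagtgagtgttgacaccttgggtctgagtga
Snord57, Nop56 intron 10 (chr2, 130278016 to 130278087, plus strand): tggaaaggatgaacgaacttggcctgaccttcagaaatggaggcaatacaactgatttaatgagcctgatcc
The second set comes from Rack1 and Rpl4, whose introns differed between pools. Each gene carries snoRNAs that resemble each other.
Gm25296, Rack1 intron 1 (chr11, 48800866 to 48800932, plus strand): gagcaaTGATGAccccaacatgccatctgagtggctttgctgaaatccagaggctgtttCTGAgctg
Snord96a, Rack1 intron 2 (chr11, 48802032 to 48802112, plus strand): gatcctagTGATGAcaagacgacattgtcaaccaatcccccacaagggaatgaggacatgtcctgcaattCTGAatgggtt
Snord95, Rack1 intron 3 (chr11, 48803139 to 48803206, plus strand): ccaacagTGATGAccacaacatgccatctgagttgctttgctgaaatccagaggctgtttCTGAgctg
Snord16a, Rpl4 intron 3 (chr9, 64175423 to 64175521, plus strand): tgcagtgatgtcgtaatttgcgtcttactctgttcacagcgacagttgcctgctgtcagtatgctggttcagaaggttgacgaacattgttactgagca
Gm22571, Rpl4 intron 4 (chr9, 64175873 to 64175942, plus strand): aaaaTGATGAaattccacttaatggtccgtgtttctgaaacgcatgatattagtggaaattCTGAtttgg
Gm23136, Rpl4 intron 5 (chr9, 64176661 to 64176759, plus strand): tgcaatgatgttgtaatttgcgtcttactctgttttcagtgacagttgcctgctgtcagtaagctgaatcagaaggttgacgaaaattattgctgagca
The third set holds H/ACA snoRNAs of introns past a test, and Rnu73b of the intron of Rps3a1 with more intermediates than its neighbours.
Snora65, Rpl12 intron 4 (chr2, 32963291 to 32963420, plus strand): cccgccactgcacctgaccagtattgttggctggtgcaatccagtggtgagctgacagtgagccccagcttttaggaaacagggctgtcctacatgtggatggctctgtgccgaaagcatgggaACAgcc
Snora33, Rps12 intron 5 (chr10, 23785347 to 23785475, minus strand): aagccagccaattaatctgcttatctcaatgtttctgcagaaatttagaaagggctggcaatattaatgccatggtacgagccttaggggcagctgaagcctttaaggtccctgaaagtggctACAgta
Snora7a, Rpl32 intron 1 (chr6, 115807975 to 115808114, minus strand): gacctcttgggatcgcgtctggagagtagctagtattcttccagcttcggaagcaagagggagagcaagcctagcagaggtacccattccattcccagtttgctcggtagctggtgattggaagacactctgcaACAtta
Rnu73b, Rps3a1 intron 3 (chr3, 86140618 to 86140688, minus strand): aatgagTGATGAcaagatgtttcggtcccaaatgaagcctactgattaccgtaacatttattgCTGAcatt

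Snord16a and Gm23136, in introns 3 and 5 of Rpl4, were identical in 88 of 99 aligned columns (88.9%). The 3 other snoRNAs of Rpl4 were also alike: Gm22571 of intron 4 matched Gm22455 of intron 6 in 58 of 73 columns (79.5%) and Gm23344 of intron 2 in 53 of 73 (72.6%). Gm25296 and Snord95, in introns 1 and 3 of Rack1, were identical in 62 of 68 (91.2%). The 3 snoRNAs of Hspa8 also resembled each other: Snord14c and Snord14d matched in 84 of 86 columns (97.7%), and each matched Snord14e in 74 of 93 (79.6%).

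Of the 215 snoRNAs, 49 had a Snord symbol and are called C/D here, 21 had a Snora symbol and are called H/ACA, and 145 had another symbol, mostly a Gm number, and were left unclassified. An exact C box with a D box was present in 27 of the 49 C/D snoRNAs and in 0 of the 21 H/ACA snoRNAs. The ACA was present in 19 of the 21 H/ACA snoRNAs and in 0 of the 49 C/D snoRNAs. Among the unclassified, 28 had the pair of boxes and 58 the ACA. Over all 1507 annotated snoRNA genes the shares were 20.5% for the boxes and 18.3% for the ACA. Only the snoRNA's own strand was searched.

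Most C/D snoRNAs lay close to the end of their introns. Their 3′ end lay a median of 84 nt from the 3′ splice site, and 32 of 49 lay between 60 and 100 nt from it. The median distance was 162 nt for H/ACA and 792 nt for unclassified snoRNAs, and 5 of 21 and 22 of 145 fell in the same window. No snoRNA ended closer than 49 nt to the 3′ splice site. The introns of C/D and H/ACA snoRNAs were short, with medians of 405 and 430 nt, against 1847 nt for introns of unclassified ones. Over all 210 snoRNA introns the median length was 974.5 nt, against 1023 nt for the other introns of the host genes and 1226 nt over the table, with a range from 171 to 85929 nt.

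**Figure D1:**
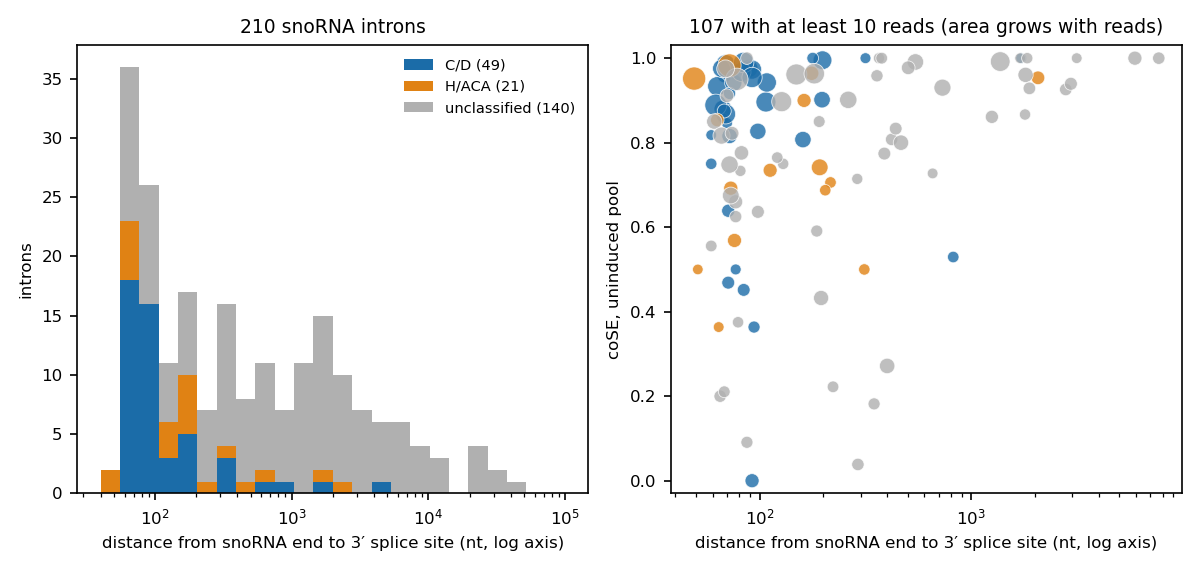
Left, number of snoRNA introns by the distance from the end of the snoRNA to the 3′ splice site (nt, log axis), stacked by class. Right, the same distance against the uninduced coSE of the 107 introns with at least 10 reads, coloured as on the left. The C/D snoRNAs pile up between 60 and 100 nt, while coSE spans nearly its whole range at those distances.

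Most snoRNA introns, 190 of 210, lay between coding exons of the table's transcript. A further 13 were in a 5′ UTR, and 7 were in a transcript without a coding sequence. There were 27 first and 18 last introns. The host list was led by ribosomal protein genes, with 57 snoRNA introns in 30 genes (Rack1, a ribosome-associated scaffold, included). There were 16 in 8 genes of translation factors, 10 in 4 genes of nucleolar or RNA-binding proteins, 5 in 2 chaperone genes and 122 in 99 other genes. A single snoRNA intron was present in 103 hosts, 2 in 21, 3 in 14, 4 in 2 (Rpl13a and 2410002F23Rik) and 5 in 3 (Eif4a2, Nop56 and Rpl4).

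Splice-site scores were deposited for 94 snoRNA introns and 358 others of the same genes. The median 5′ score was 9.22 for snoRNA introns, 8.72 for the others and 8.78 over the 6537 introns with a score. The median 3′ score was 8.06, 8.71 and 8.70 in the same order. The median GC content was 44.5% for snoRNA introns, 43.7% for the others and 43.9% over the same 6537 introns. These differences were not tested.

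Depth was uneven. The median coverage of a snoRNA intron was 10.5 uninduced and 6 induced reads, against 6 and 4 at other introns of the same genes. Coverage of at least 10 reads was reached by 107 snoRNA introns when uninduced, by 86 when induced and by 80 in both, and 3 had no read at all. The 10 host genes with most reads gave 64.0% of all reads at snoRNA introns. Ribosomal protein hosts held 75.1% of the uninduced and 58.4% of the induced reads at snoRNA introns, but 44.6% and 24.7% of those at the other introns of host genes. Sums over reads therefore set unlike mixes of genes against each other, and means over introns give each intron with at least 10 reads the same weight.

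Co-transcriptional splicing efficiency (coSE) is the fraction of an intron's reads that are spliced. With reads added over all hosts, snoRNA introns and the other introns of their genes had nearly the same coSE in uninduced cells, but within 4 of 5 lists of hosts the snoRNA introns had the lower value, as given below. In that pool 8893 of 10133 reads at snoRNA introns were spliced, a coSE of 0.878 (95% Wilson interval 0.871 to 0.884), against 21553 of 24628 (0.875, 0.871 to 0.879) at the other introns. The difference of 0.00249 had a 95% interval from −0.00520 to 0.0100. The induced values were 2938 of 3563 (0.825, 0.812 to 0.837) against 10698 of 12536 (0.853, 0.847 to 0.859). That difference of −0.029 had an interval from −0.043 to −0.015. These intervals cover counting error only, since PCR copies may be counted and reads are shared by introns of a gene. Against only the introns directly before or after a snoRNA intron, both differences had the opposite sign, at −0.015 before and 0.012 after induction.

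Counted by intron, snoRNA introns had lower values than the other introns in both pools. Their mean coSE over introns with at least 10 reads was 0.776 in the uninduced pool, with a median of 0.857, against 0.823 and 0.904 at the other introns. The induced mean was 0.773 and the median 0.862, against 0.850 and 0.929. Of the uninduced snoRNA introns, 13.1% were under 0.5 and 10.3% were at exactly 1, against 9.16% and 22.1% of the others. The snoRNA introns in this count were shorter, with a median of 447 nt against 645.5 nt, and were more deeply covered, and a deeper intron is less often at exactly 1. The part of length and depth in these differences was not tested beyond the strata given below.

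**Figure D2:**
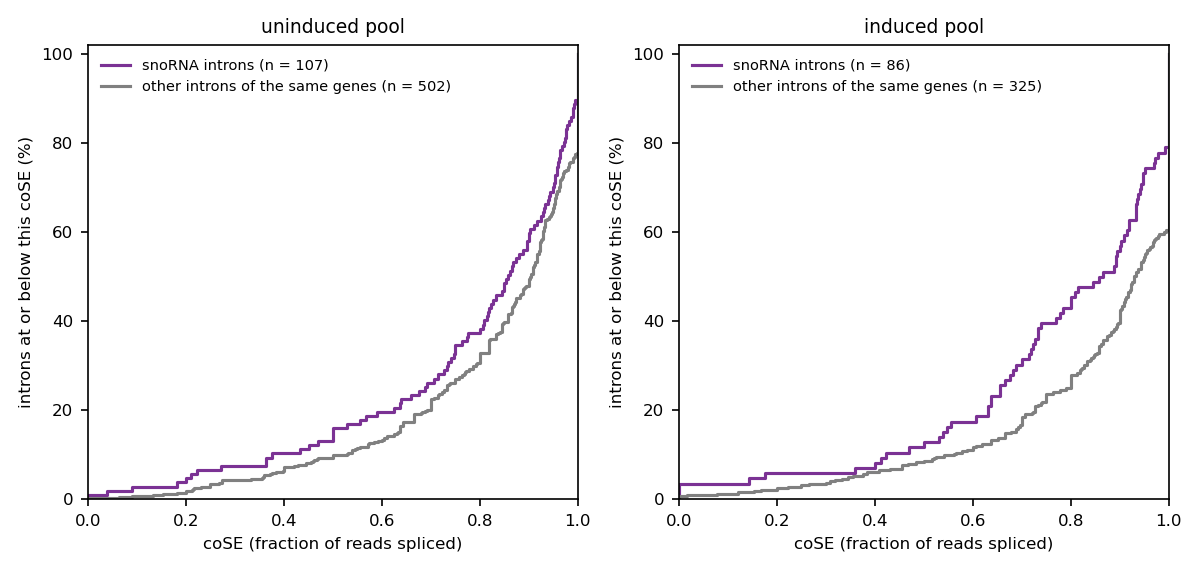
Cumulative share of introns (%) at or below each coSE, for introns with at least 10 reads, in the uninduced (left) and induced (right) pool. The curve of snoRNA introns lies above that of the other introns over most of the range, with medians of 0.857 against 0.904 and 0.862 against 0.929.

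With reads added, length strata did not all point one way. Among uninduced introns of up to 250 nt, summed coSE was 0.878 at snoRNA introns and 0.862 at other introns of host genes. It was 0.829 against 0.878 from 250 to 500 nt, 0.883 against 0.830 from 500 to 1000 nt, and 0.938 against 0.915 above 1000 nt. The induced values were 0.811 against 0.782, 0.766 against 0.856, 0.809 against 0.822 and 0.915 against 0.925. As means over introns with at least 10 reads, snoRNA introns were lower in 3 of the 4 uninduced strata, at 0.748 against 0.758, 0.701 against 0.792 and 0.713 against 0.781, and higher above 1000 nt, at 0.938 against 0.902. The induced means were lower in all 4, at 0.779 against 0.787, 0.674 against 0.811, 0.740 against 0.816 and 0.885 against 0.927. By position of the snoRNA, the mean uninduced coSE over introns was 0.735 for 53 introns whose snoRNA ended within 100 nt of the 3′ splice site, 0.765 for 24 at 100 to 300 nt and 0.857 for 30 further away. With reads added the same groups had 0.883, 0.873 and 0.866. The order of the groups thus depended on the weighting, and introns with a distant snoRNA are also the long ones.

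Summed coSE varied between the lists of host genes. In ribosomal protein hosts, summed coSE was 0.915 at snoRNA introns and 0.926 at the others before induction, and 0.868 against 0.882 after it. In translation factor hosts it was 0.747 against 0.813, and 0.663 against 0.693. In the nucleolar or RNA-binding list it was 0.814 against 0.784, and 0.773 against 0.786. These are largely values of Nop56, which gave 476 of the 515 uninduced and 240 of the 256 induced reads at its snoRNA introns. Gnl3, Ppan and Wdr43 were counted with the remaining hosts. The chaperone list had 0.519 against 0.703, and 0.619 against 0.521, from 108 and 84 reads at its snoRNA introns. The remaining hosts had 0.781 against 0.849, and 0.850 against 0.899. By class, C/D introns had an uninduced value of 0.900 and an induced one of 0.846, against 0.880 and 0.847 at the other introns of their hosts. H/ACA introns had 0.896 and 0.753, against 0.908 and 0.759, so the lower induced value was shared by their hosts. Unclassified ones had 0.847 and 0.818, against 0.842 and 0.860. Differences between lists and between classes were not tested.

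Each intron was then compared with the added reads of the other introns of its own transcript, so that promoter, depth of the gene and 3′ end were shared. A two-sided Fisher's exact test was run on every intron of the table with at least 10 reads, with Benjamini-Hochberg adjustment over all and a threshold of 0.05. In the uninduced pool 9 of 106 snoRNA introns were called lower and 2 higher, 8.49% and 1.89%. The background over all 9841 introns tested was 5.27% lower and 1.74% higher. Of the induced introns, 4 of 85 were called lower (4.71%) and 2 higher (2.35%), against 4.92% and 1.80% of 6238 introns. The induced shares were thus near the background. Of the 79 introns tested in both pools, 2 were called lower in both, 1 was called higher in both, and 0 were called in opposite directions.

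Coverage moved with these calls. The snoRNA introns tested had a median of 42 uninduced reads, against 16 over all introns tested. With 50 or more reads, 7 of 46 snoRNA introns were called lower and 1 higher (15.2% and 2.17%), against 8.05% and 8.83% of 770 introns of the table. With 20 to 49 reads it was 1 of 31 lower (3.23%), against 6.60% of the table, and with 10 to 19 reads 1 of 29 (3.45%), against 4.37%. In the induced pool, 1 of 18 snoRNA introns with 50 or more reads was called lower (5.56%), against 10.3% of the table. The share called lower was thus above the table's in the uninduced stratum of 50 or more reads and in no other stratum of either pool. The median difference from the rest of the gene was −0.018 at snoRNA introns, 0.026 at the other introns of host genes and 0.020 over all introns tested. The induced medians were 0, 0.025 and 0.020. An intron and the rest of its gene are set against each other in this test, so a low snoRNA intron raises the value of its neighbours.

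The lowest coSE of a host gene was at a snoRNA intron in 25 of 62 hosts of the uninduced pool (40.3%), while snoRNA introns made up on average 29.5% of the introns compared in a host. Among induced hosts it was 11 of 46 (23.9%), with an average of 30.6%. The highest coSE was at a snoRNA intron in 9 hosts of the uninduced pool (14.5%) and 10 of the induced pool (21.7%). The difference between pools in these shares was not tested.

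**Figure D3:**
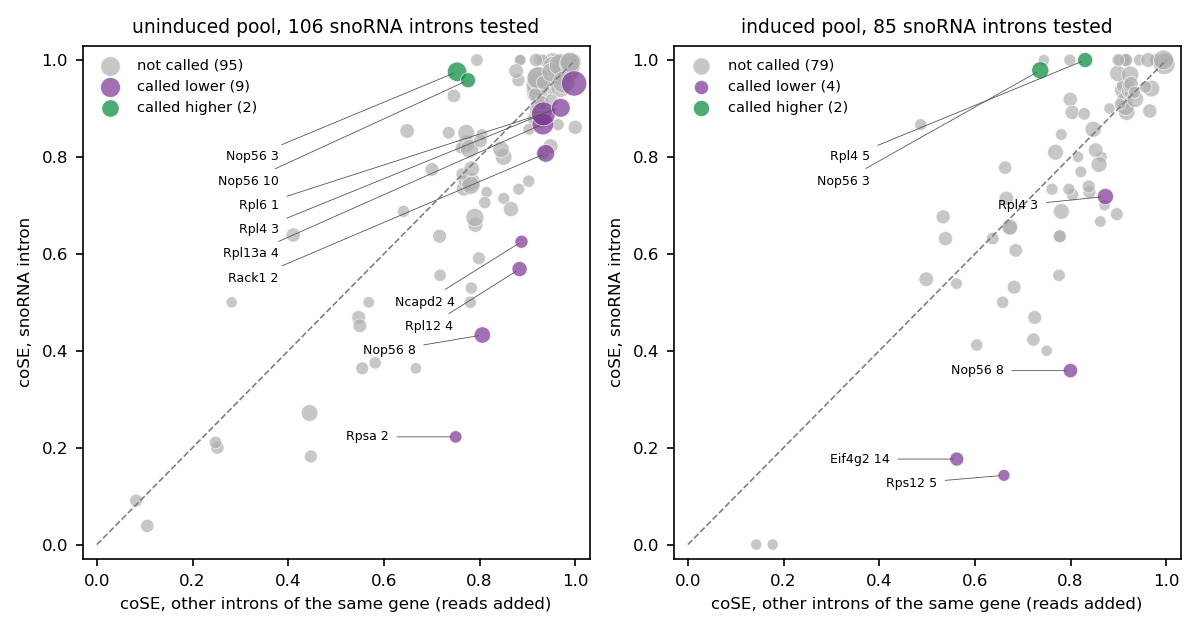
coSE of each snoRNA intron (y axis) against that of the other introns of its gene with reads added (x axis), in the uninduced (left) and induced (right) pool. Point area grows with reads, the dashed line marks equal values, and colours mark calls of Fisher's exact test, with names beside the called introns that the text describes. The 9 introns called lower in the uninduced pool reach down to Rpsa intron 2 at 0.222.

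Ribosomal protein hosts held 7 of the 9 uninduced introns called lower, out of 54 tested in that list, with 0 called higher and a median difference of −0.015. That is 13.0% called lower, against 13 of 272 introns without a snoRNA in all ribosomal protein genes (4.78%) and 5.27% over all introns tested. Other introns of the same hosts had 2 called lower and 8 higher of 91. The difference in shares was not tested.

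In Rpl12 the intron of Snora65 had 29 of 51 reads spliced (0.569) in the uninduced pool, against 167 of 189 (0.884) at the others (adjusted p = 9.35e-05, Fisher's exact test). Its 6 introns ranged from 0.569 to 0.946, and the snoRNA intron was the lowest. In Rpl13a, which carries C/D snoRNAs in 4 of its 7 introns, the intron of Snord33 had 230 of 265 (0.868) against 1308 of 1403 (0.932; adjusted p = 0.0145, Fisher's exact test). The other 3 snoRNA introns of Rpl13a had 0.896, 0.934 and 0.942, and the introns without a snoRNA 0.922, 0.943 and 0.967. So within this gene only intron 4 passed the test, and the ranges of both kinds of intron overlapped.

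In Rpl6 the first intron, with Gm26205, had 128 of 142 (0.901) against 639 of 659 (0.970; adjusted p = 0.0176, Fisher's exact test). In Rpsa, a small-subunit protein, intron 2 with Gm24044 had 4 of 18 (0.222) against 57 of 76 (0.750; adjusted p = 0.0017, Fisher's exact test). Outside this list, Ncapd2, a condensin subunit, had 15 of 24 (0.625) at the intron of Scarna10 against 221 of 249 (0.888; adjusted p = 0.0291, Fisher's exact test). At the same introns Rpl6 had 16 of 18, Rpsa 1 of 6 and Ncapd2 7 of 10 induced reads spliced, and none of these passed or could be tested.

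Nop56 encodes a core protein of C/D snoRNPs and itself hosts 5 snoRNAs, and its introns gave calls in both directions. Intron 3, with Snord110, had 161 of 165 uninduced reads spliced (0.976) and 92 of 94 induced ones (0.979). It was higher than the rest of the gene in both pools, which had 0.753 and 0.737 (adjusted p = 1.48e-11 and 2.31e-07, Fisher's exact test). Intron 8, with Gm23187, had 32 of 74 (0.432) and 14 of 39 (0.359). It was lower than the rest, which had 0.806 and 0.800 (adjusted p = 1.64e-09 and 9.55e-07, Fisher's exact test). Intron 10, with Snord57, had 46 of 48 (0.958) when uninduced and was called higher there (adjusted p = 0.0206, Fisher's exact test). With 14 of 22 induced reads spliced (0.636) it did not pass (adjusted p = 0.518, Fisher's exact test).

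The values along Nop56 set these calls beside its other introns. Introns 1 to 4 had uninduced coSE of 0.941, 0.994, 0.976 and 0.955, and of these only intron 3 holds a snoRNA. Intron 6, which holds none and is 83 nt long, had 32 of 151 reads spliced (0.212), the lowest of the gene, and 17 of 64 (0.266) in the induced pool. Intron 7, also without a snoRNA, had 0.575 and 0.385. The high value of intron 3 was thus shared by its neighbours, and the low values of the middle of the gene included introns of both kinds. Intron 5 with Gm24451 (0.817 and 0.810) and intron 9 with Gm23650 (0.776 and 0.636) did not pass in either pool.

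**Figure D4:**
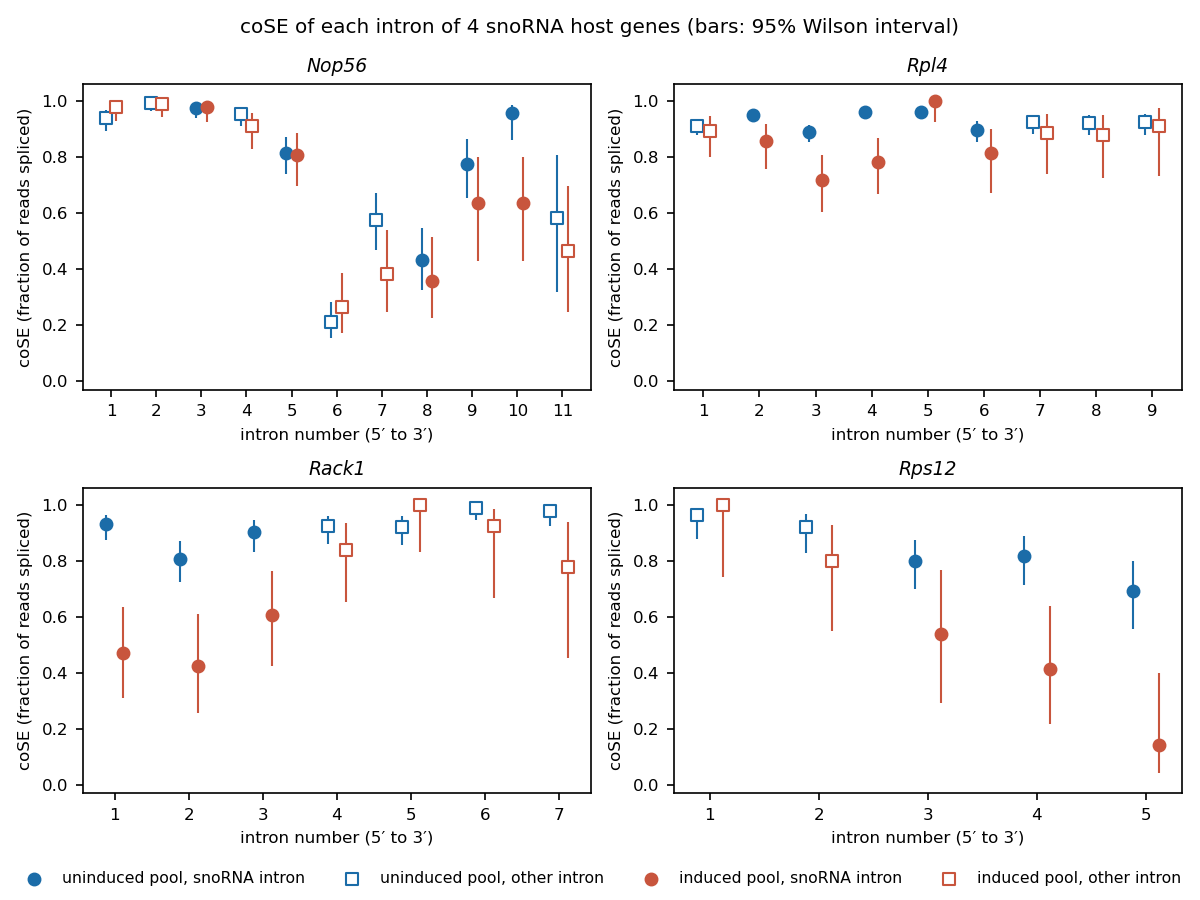
coSE (y axis) of every intron of Nop56, Rpl4, Rack1 and Rps12, in 5′ to 3′ order (x axis), with 95% Wilson intervals as bars. Filled circles are snoRNA introns and open squares other introns, in blue for the uninduced and red for the induced pool. In Nop56 both pools dip at introns 6 to 8, and in Rack1 and Rps12 the snoRNA introns have the low induced values.

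Rpl4, a large-subunit protein gene, carries snoRNAs in introns 2 to 6. Its uninduced coSE at these introns was 0.950, 0.889, 0.961, 0.963 and 0.897, against 0.910 to 0.925 at its 4 other introns. Intron 3, with Snord16a, had 360 of 405 reads spliced and was lower than the rest of the gene at 0.933 (adjusted p = 0.0397, Fisher's exact test). The induced value, 51 of 71 (0.718) against 0.873, was again lower (adjusted p = 0.0314, Fisher's exact test). Intron 5, with the near-copy Gm23136, had 289 of 300 (0.963) when uninduced, which did not pass (adjusted p = 0.102, Fisher's exact test). After induction all 49 of its reads were spliced, higher than the rest of the gene at 0.830 (adjusted p = 0.0102, Fisher's exact test). A pair of introns that hold snoRNAs of 88.9% identity thus had the lowest and the highest induced coSE of the gene.

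The splice sites of these introns are shown because the scores of introns 3 and 5 lie far apart. They are the deposited sequences (mm10), with 3 exon and 6 intron bases at the 5′ site and 20 intron and 3 exon bases at the 3′ site, and the first and last bases of the intron are in capitals.
Rpl4 intron 3, 5′ splice site: aatGTatcc
Rpl4 intron 3, 3′ splice site: attcttgacaaagaaaacAGatg
Rpl4 intron 5, 5′ splice site: aagGTaagc
Rpl4 intron 5, 3′ splice site: taaagctacttactttatAGgtc
Rack1 intron 1, 5′ splice site: gagGTacgg
Rack1 intron 1, 3′ splice site: acctttaccaacccttttAGaca
Rack1 intron 2, 5′ splice site: aacGCaagt
Rack1 intron 2, 3′ splice site: gaccaggttctccttcttAGggg
Nop56 intron 3, 5′ splice site: aagGTgagt
Nop56 intron 3, 3′ splice site: ctgttttctttgtcccaaAGgtg
Nop56 intron 8, 5′ splice site: cagGTacca
Nop56 intron 8, 3′ splice site: ttgactgaatattctcacAGagc
Rps12 intron 5, 5′ splice site: aagGTaagt
Rps12 intron 5, 3′ splice site: tcgcatttaatttttttaAGgac
Rpl4 intron 3 had deposited scores of 1.97 at the 5′ and −7.23 at the 3′ splice site, against 10.22 and 6.71 for intron 5. Nop56 intron 3 had 10.47 and 9.76, and intron 8 had 7.88 and 5.11. Rps12 intron 5 had 11.00 and 7.26, above and below the medians of snoRNA introns, although its coSE was low. Rack1 intron 2 begins with GC in place of GT. It was the only such intron among 94 snoRNA introns with a sequence, against 43 of all 6537 introns with one (0.658%).

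Rack1 carries snoRNAs in introns 1 to 3. Intron 2, with Snord96a and the GC 5′ splice site (score 2.98), had 88 of 109 uninduced reads spliced (0.807), lower than the rest of the gene at 0.938 (adjusted p = 0.00105, Fisher's exact test). Introns 1 and 3, with the near-copies Gm25296 and Snord95, had 120 of 129 (0.930) and 101 of 112 (0.902). The 4 introns without a snoRNA had 0.922 to 0.990. In this gene the uninduced values of introns 1 and 3 were thus close to those of the others, and intron 2 stood below them.

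The remaining induced introns called lower were in Eif4g2 and Rps12. Eif4g2, a translation factor, had 6 of 34 induced reads spliced (0.176) at the intron of Gm23262, against 0.562 at the rest (adjusted p = 7.28e-04, Fisher's exact test). Its uninduced 4 of 22 (0.182) against 0.447 did not pass (adjusted p = 0.191, Fisher's exact test). Its neighbour intron 13, without a snoRNA, had 4 of 22 and 4 of 33 (0.121). Rps12 intron 5, with Snora33, had 2 of 14 (0.143) against 0.661 and was called lower (adjusted p = 0.0144, Fisher's exact test). Its uninduced 36 of 52 (0.692) against 0.865 missed the threshold (adjusted p = 0.0513, Fisher's exact test).

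Some snoRNA introns had a very low coSE. Over both pools, 99 snoRNA introns had at least 20 reads, of which 10 were under 0.5 (10.1%) and 7 at exactly 1 (7.07%). Of the other introns of host genes at that depth 6.88% were under 0.5 and 19.7% at 1, and of all introns 5.90% and 25.1%. The lowest was the only intron of the Rabggtb transcript of the table, which has no coding sequence and holds Snord45c: 0 of 69 reads were spliced, 51 and 18 in the uninduced and induced pool. A count of 0 of 69 allows a coSE of up to 4.35% of reads (3 counts). In Rpl21, introns 3 (Gm25091) and 4 (Gm23202) had 2 of 32 and 2 of 34 reads spliced over both pools, and the rest of the gene had coSE of 0.082 (uninduced) and 0.143 (induced) when set against intron 3. Eif4g2 intron 14 (10 of 56) and Rpsa intron 2 (5 of 24) completed the 5 lowest, and each was called lower than its gene in one pool, as given above. The introns of Rpl21 were not called, and Rabggtb had no other intron to compare with.

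At the other end, all reads were spliced at Atp5c1 intron 1 (69 of 69), Rpl7a intron 2 (42 of 42), Nap1l4 intron 8 (36 of 36), Cs intron 1 (34 of 34) and Cep85 intron 2 (28 of 28). Atp5c1 encodes a subunit of ATP synthase and Cs encodes citrate synthase. Their introns are 10620 and 11793 nt long, and that of Rpl7a is 295 nt. Among the snoRNA introns with most reads over both pools were Rpl32 intron 1 (581 of 592 spliced), Rpl4 introns 2 (478 of 510) and 3 (411 of 476), and Rps3a1 intron 3 (501 of 505). Of these, all but Rpl4 intron 3 were above 0.9.

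Hosts with several snoRNA introns varied in how these compared with the rest of the gene. In Eif4a2, an RNA helicase of translation initiation with 5 of its 10 introns holding a snoRNA, summed coSE was 0.760 at snoRNA introns and 0.796 at the others before induction, and 0.664 and 0.678 after it. In Eif4a1 the values were 0.671 against 0.721, and 0.893 against 0.782. In Rpl23a they were 0.970 against 0.929, and 0.940 against 0.800, with 10 reads at its single other intron in the induced pool. In Hspa8, a constitutive Hsp70 chaperone with the 3 Snord14 copies, they were 0.435 against 0.595, and 0.625 against 0.521. No snoRNA intron of these 4 genes passed the within-gene test in either pool. Rpl5 had 0.873 against 0.953 before and 0.800 against 0.696 after induction, the latter from 15 and 23 reads. Rpl7a had 0.897 against 0.950, and 0.800 against 0.838. Gnl3, Ncl, Ubap2, Wdr43, Rpl17 and 2410002F23Rik had 2 to 45 reads at their snoRNA introns in each pool, and no snoRNA intron of theirs was called within its gene.

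Between pools, 6 of the 80 snoRNA introns with at least 10 reads in both were lower in the induced pool and 0 were higher (Fisher's exact test with Benjamini-Hochberg adjustment over all introns). That is 7.50% lower, against a background of 1.25% lower and 0.363% higher over 4403 introns. At an unadjusted p under 0.05 there were 14 of the 80 (17.5%), in either direction, against 351 of the 4403 (7.97%). A chi-square test called 10 lower and 0 higher, and 2.25% of all introns in either direction. All 6 lay in 3 hosts of the ribosomal protein list, Rack1, Rpl4 and Rps12, among its 41 introns tested. That is 14.6% of the list, against 18 of 223 introns without a snoRNA in the table's ribosomal protein genes (8.07%, with 0 higher) and 4 of 62 in the same hosts (6.45%). Rack1, which is not itself a ribosomal protein gene, held 3 of the 6, and without it 3 of 38 snoRNA introns in the list were called lower (7.89%), against 18 of 220 (8.18%). Lower calls in ribosomal protein genes were thus not confined to snoRNA introns, and the difference in shares was not tested. Coverage was also higher, with a median of 82.5 reads over both pools against 40 over all introns tested. With 50 or more reads over both pools, 6 of 59 snoRNA introns were called lower (10.2%), 7 of 134 other introns of host genes (5.22%) and 51 of 1615 introns of the table (3.16%).

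In Rack1 intron 1 the coSE was 0.930 in the uninduced and 15 of 32 (0.469) in the induced pool (adjusted p = 1.24e-05, Fisher's exact test). Intron 2 went from 0.807 to 11 of 26 (0.423; adjusted p = 0.0252, Fisher's exact test) and intron 3 from 0.902 to 17 of 28 (0.607; adjusted p = 0.0361, Fisher's exact test). The 4 introns without a snoRNA had induced values of 0.778 to 1. Over the gene, snoRNA introns had 43 of 86 induced reads spliced (0.500) and the others 59 of 66 (0.894). The snoRNA introns of Rack1 are also its first 3, so position and snoRNA cannot be told apart.

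In Rpl4, intron 4 with Gm22571 was lower in the induced pool, at 51 of 65 (0.785) against 324 of 337 (0.961; adjusted p = 0.00193, Fisher's exact test). Intron 3 was lower as well, at 0.718 against 0.889 (adjusted p = 0.0361, Fisher's exact test). Introns 2, 5 and 6 did not pass, with induced values of 0.857, 1 and 0.814. In Rps12, intron 5 had 0.692 uninduced and 0.143 induced (adjusted p = 0.0324, Fisher's exact test). Intron 4, with Snord100, had 62 of 76 (0.816) and 7 of 17 (0.412), which did not pass (adjusted p = 0.0791, Fisher's exact test). The snoRNA introns of Rps12 are its last 3, and its first 2 had induced coSE of 1 and 0.800.

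**Figure D5:**
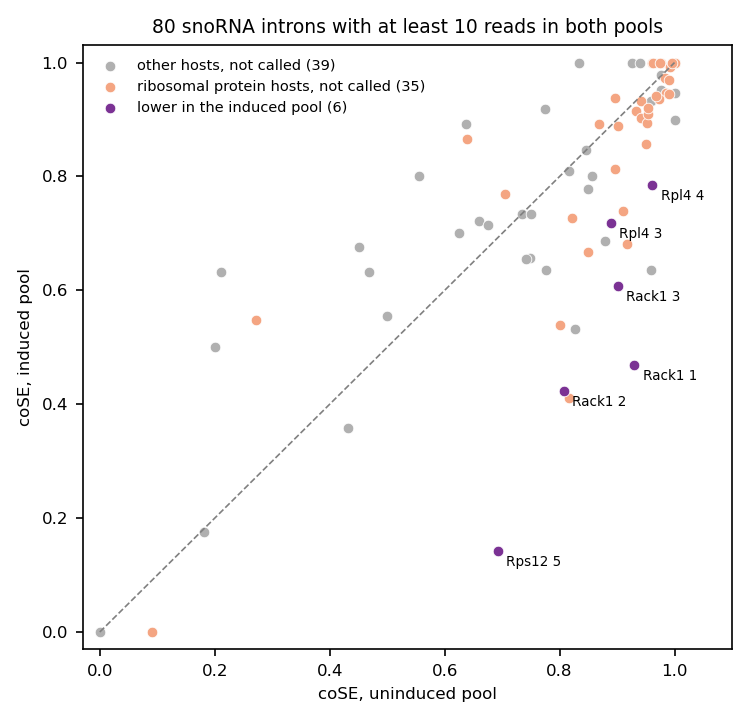
coSE in the uninduced (x axis) and induced (y axis) pool for the 80 snoRNA introns with at least 10 reads in both; the dashed line marks equal values. The 6 introns called lower (purple) belong to Rack1, Rpl4 and Rps12, and 28 of 41 introns of ribosomal protein hosts lie below the line (68.3%), against 143 of 223 introns without a snoRNA in ribosomal protein genes (64.1%), which are not drawn.

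The largest rises were at Ppan, a ribosome biogenesis factor, and at Rpl3. Ppan intron 6 had 4 of 19 reads spliced before and 12 of 19 after induction, Ppan intron 3 had 5 of 25 and 9 of 18, and Rpl3 intron 5 had 22 of 81 and 23 of 42. None of the 3 passed (adjusted p = 0.425, 0.641 and 0.148, Fisher's exact test). The other introns of Ppan went the same way, from 0.248 to 0.637 when set against intron 6. By host list, the median difference between pools was −0.037 over 41 introns of ribosomal protein hosts, −0.0034 over 14 of translation factors, −0.065 over 6 of nucleolar or RNA-binding proteins, 0.19 over 2 of chaperones and 0 over 17 of other hosts. It was 0 over all introns tested and −0.031 over the 223 introns without a snoRNA in ribosomal protein genes. Of the 6 introns of nucleolar or RNA-binding hosts, 5 were those of Nop56.

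Whether an intron changed more than its own gene was tested with a likelihood-ratio test of the three-way term, which is not an exact test and was chosen after seeing the data. Of 79 snoRNA introns, 0 were called lower and 0 higher after Benjamini-Hochberg adjustment, and 9 had an unadjusted p under 0.05 (11.4%, against 9.24% of all introns tested). The background was 0.0462% lower and 0.139% higher over 4329 introns. The smallest p was at Nop56 intron 10, whose coSE was 0.32 lower in the induced pool while the rest of the gene differed by 0.0015 (p = 6.24e-04, adjusted p = 0.112, likelihood-ratio test, not exact). For Rack1 intron 2 the rest of the gene differed by −0.22 while the intron differed by −0.38 (adjusted p = 1, likelihood-ratio test, not exact). That rest includes the 2 other snoRNA introns, which were called lower as well, and the 4 introns without a snoRNA went from 0.950 to 0.894 with reads added. So none of the 6 introns called between pools was shown to differ from the change of the rest of its gene, other snoRNA introns included.

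Splicing takes place in 2 steps, and an intermediate is read here as the freed upstream exon left between them. NIC is the share of intermediates among intermediates and spliced reads together. Before induction, snoRNA introns in the NIC table had 132 intermediates in 8120 reads (1.63%, 95% Wilson interval 1.37% to 1.92%). The other introns of the same genes had 2.30% (2.07% to 2.55%). The induced values were 76 of 2223 (3.42%, 2.74% to 4.26%) against 3.54% (3.09% to 4.07%). The difference was −0.671 percentage points before induction (95% interval −1.03 to −0.297) and −0.125 after it (−0.981 to 0.830). Both intervals cover counting error only. Within lists of hosts the uninduced gap was smaller and the intervals overlapped. In ribosomal protein hosts NIC was 1.24% (1.00% to 1.53%) against 1.52% (1.29% to 1.78%), and in all other hosts 3.54% (2.68% to 4.67%) against 3.69% (3.22% to 4.22%). The induced values were 1.93% against 2.06% in ribosomal protein hosts and, in the other direction, 6.87% (5.19% to 9.04%) against 4.60% (3.93% to 5.38%) in the other hosts. Against introns of similar length the induced difference also had the opposite sign, at 1.04 percentage points. At least 1 intermediate was seen at 45 of 89 uninduced and 33 of 62 induced snoRNA introns (50.6% and 53.2%). The shares were 43.3% and 42.0% at the other introns of host genes and 36.2% and 37.8% over the NIC table, and their differences were not tested. At the uninduced median depth of 33 reads, a count of 0 still allowed a NIC of 9.09%.

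The within-gene test of NIC called 2 of 72 uninduced snoRNA introns lower and 2 higher (2.78% each). The background was 0.340% lower and 1.38% higher over 4417 introns. Of 248 other introns of the host genes, 1.61% were called lower and 3.23% higher. Median depth was 57 reads at the snoRNA introns, 20 at those others and 16 over all introns tested. The part of depth in these shares was not tested. Rack1 intron 2 was higher, with 10 intermediates in 91 reads (11.0%, 6.08% to 19.1%) against 2.25% in the rest of the gene (adjusted p = 0.0236, Fisher's exact test). This is the intron with the GC 5′ splice site and the lowest uninduced coSE of its gene. After induction it had 5 in 14 (35.7%) against 3.45%, which did not pass (adjusted p = 0.0615, Fisher's exact test). Rps3a1 intron 3, with Rnu73b, was higher as well, with 8 in 251 (3.19%) against 0.292% (adjusted p = 0.0168, Fisher's exact test). Its uninduced coSE was 0.992, so a well-spliced intron also had intermediates above its gene. After induction Rps3a1 intron 3 had 4 intermediates (1.55%) and was not called. Of the introns without a snoRNA in that gene, intron 5 then had 4 (2.96%) and introns 1 and 2 had 0.

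Lower NIC was called at Rpl32 intron 1, with Snora7a, which had 0 intermediates in 511 reads (up to 0.746% by the Wilson interval) against 2.42% (adjusted p = 0.00722, Fisher's exact test). The 22 uninduced intermediates of Rpl32 were all at intron 3. Nop56 intron 3 had 0 in 155 against 5.86% (adjusted p = 0.0236, Fisher's exact test), and 21 of the gene's intermediates were at intron 6, which has no snoRNA.

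After induction 1 of 56 snoRNA introns had a higher NIC and 0 a lower one, with 3 at an unadjusted p under 0.05 (5.36%, against 8.49% of all introns tested). A chi-square test called 2 higher and 0 lower, and 5.31% of all introns in either direction. The background of the exact test was 1.13% lower and 2.22% higher over 2392 introns. The call was Nop56 intron 9, with Gm23650, at 8 intermediates in 20 reads (40.0%, 21.9% to 61.3%) against 3.08% in the rest of the gene (adjusted p = 3.48e-05, Fisher's exact test). Before induction it had 4 in 42 (9.52%) against 4.68%, which did not pass (adjusted p = 1, Fisher's exact test). Its deposited 3′ splice-site score was 0.80. Rpl4 had intermediates at all 5 snoRNA introns, 4 to 8 each before induction and NIC of 1.23% to 2.72%. Hspa8 had 6 induced intermediates in 29 reads at intron 5 and 6 in 28 at intron 6 (20.7% and 21.4%). Its introns 4 and 7, without a snoRNA, had 4 and 7 induced intermediates (22.2% and 41.2%). Rpl3 had 4 uninduced ones in 21 reads at intron 5 (19.0%) and 3 in 18 at intron 7 (16.7%), against 12.9% and 13.2% in the rest of the gene. Its introns without a snoRNA ranged from 0% at intron 1 to 45.5% at intron 8, with 25.0% at intron 9. In Eif4a2 the snoRNA introns had 22 intermediates in 411 uninduced reads and 12 in 140 induced reads, against 10 in 423 and 1 in 127 at the other introns. Those others were unlike each other. Introns 1 and 2 had 0 in both pools. Uninduced introns 4, 5 and 10 had 1, 3 and 6 (1.27%, 2.83% and 27.3%), against 2.86% to 6.82% at the snoRNA introns. No snoRNA intron of these 4 genes passed.

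Genes whose proteins build or use snoRNPs were listed as well, such as Fbl (the C/D methyltransferase), Dkc1 (the H/ACA pseudouridine synthase) and Dbr1 (the debranching enzyme). Of 23 listed genes 20 were in the table with 196 introns, but only 33 introns of 5 genes had at least 10 reads in both pools, 5 of them the snoRNA introns of Nop56. Between pools 0 were called lower and 0 higher (Fisher's exact test with Benjamini-Hochberg adjustment), 1 had an unadjusted p under 0.05, and the median difference was 0, as over all introns tested.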

How the data were processed

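Long-read nascent RNA sequencing of MEL cells was used through 2 tables that the authors deposited with 1 line per intron and condition. Per the file headers, the first holds raw read counts, spliced and unspliced. The second holds counts of spliced reads and of intermediates, NIC as a fraction deposited by the authors, GC content as a deposited percent (read here as the intron's GC content; the header does not say) and splice-site scores as deposited, a score whose program is not given in the sources used here. The submitters' processing notes name cutadapt, minimap2, SAMtools, bedtools, Bowtie and the mm10 build, with no role. How unspliced counts were merged, how intermediates were recognised, which runs were pooled and whether a read lying wholly inside an intron was counted are not given in the sources used here.

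From the counts, coSE was computed as spliced over spliced plus unspliced reads. Intron positions are 1-based (2 added to the deposited start, 1 taken from the end) and fell on GENCODE M21 introns. snoRNA genes, positions and sequences came from that annotation and its transcripts; no genome sequence was used. An intron was tested with at least 10 reads at it and at the rest of its transcript, or in both pools. Differences of sums have 95% intervals combined from Wilson intervals. The tests were checked on simulated counts. Software was Python 3.11.15, SciPy 1.17.1, pandas 2.3.3 and NumPy 2.4.6.

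The members, host lists and gene lists were chosen with earlier results of these data known. Named introns are those past a test, the 5 lowest and 5 highest in coSE with at least 20 reads, the 3 largest rises and falls, those with the highest NIC or at least 3 intermediates, hosts with 3 or more snoRNA introns, and the 5 with most reads; some results under this rule are not reported here. The alternatives were the weighting, the read minimum, the set of reference introns, the test, single host genes and the snoRNA class. Whether the samples came from separate cultures beyond the label of biological replicate is not stated, and the pools carry no spread between them.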

Additional observations from a re-analysis of the deposited data

How the results depend on the processing

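No paired analysis was possible because each condition is a single pooled line per intron, and leaving out a replicate was not run for the same reason. The uninduced difference in coSE between snoRNA introns and the other introns of their genes (0.00249 with reads added) had no stable sign. It was −0.047 as a mean over introns with at least 10 reads, −0.00940 against introns of similar length, −0.015 against neighbouring introns, −0.0070 without Rpl4, −0.00379 with reads added over introns with at least 10 reads, −0.018 as a median over snoRNA introns and 0.012 without first and last introns. The induced difference (−0.029) was −0.0774 as a mean over introns, −0.044 against introns of similar length, −0.043 without Rps3a1, −0.0039 for snoRNAs named Snord or Snora, 0 as a median over snoRNA introns, and reversed to 0.012 against neighbouring introns; the cause was not tested. The uninduced NIC difference (−0.671 percentage points) was −1.12 as a mean over introns. The induced one (−0.125) was 1.04 against introns of similar length. Without a read minimum, where more introns share the adjustment, calls fell from 11 to 7 within genes in the uninduced pool, from 6 to 3 in the induced pool and from 6 to 2 between pools. The share called over all introns fell as well, from 7.01% to 1.09%, from 6.72% to 0.702% and from 1.61% to 0.0856%. Between pools the chi-square test called 10, 3 were left without Rack1, and 0 when the change was set against that of the gene. The single induced NIC call became 2 by the chi-square test and 0 without Nop56. The other 20 alternatives stayed within the limits set for them, and no difference among them changed sign. Depth limits all of this: 107 and 86 of 210 snoRNA introns had at least 10 reads.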
